A study of Homo sapiens with 12 samples.

Results

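The MIR146A locus and 5 genes around it on chromosome 5 were followed in K562, a human chronic myeloid leukaemia cell line, by RNA sequencing. A locus of the deposited table was taken when its gene names included MIR146A, PTTG1, SLU7, PWWP2A, ATP10B or ZBED8, and where several loci carried a symbol the one with the highest mean level was taken. This gave 6 loci of 38272 in the table. All 6 were among the 32866 loci tested, which reached at least 1 FPKM (fragments per kilobase of transcript, scaled to the mapped fragments of the library) in at least 3 of the 12 libraries, and MIR146A reached that level only in the TNF-treated libraries. The 12 libraries formed 4 groups of 3 labelled biological replicates. TNFSG cells were transfected with Si623/Gap01, an siRNA plus a GapmeR directed at a long non-coding RNA, and then exposed for 6 hours to 20 ng/mL of TNF, tumour necrosis factor alpha. TNF cells received a mock transfection of control siRNA and control GapmeR (SiCt+GapCt) and the same TNF exposure. SG cells received Si623/Gap01 and control cells SiCt+GapCt, both without TNF. A GapmeR is a chimeric antisense oligonucleotide that makes RNase H cut the RNA it pairs with. The siRNA and the GapmeR were always given together, so their parts cannot be told apart, and every group was transfected. The labelled line is 1 cell line, and p-values measure the spread between these labelled replicates.

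Read totals were not in the table, but low values stepped in whole multiples of 1 read, to within 0.01 read, at 5816 of 6275 low loci (92.7%). With the depth factors of other libraries this held for 1 of them. From these steps the relative depth of the libraries lay between 0.863 in control replicate 3 and 1.32 in TNFSG replicate 1. FPKM sums lay between 925955 and 1083480 per library. Of the 66 library pairs, 0 held identical values. The erythroid markers of K562 were present, with group means of 106 to 131 FPKM for GATA1, 54.5 to 93.9 FPKM for KLF1 and 511 to 771 FPKM for HBZ. Of 13 tested erythroid and megakaryocytic marker loci, NFE2, an erythroid transcription factor, passed in both TNF comparisons. It fell to 50.0 FPKM in TNF cells, against 99.1 FPKM in control cells (limma adjusted p 0.00541), and to 44.8 FPKM in TNFSG cells, against 100.1 FPKM in SG cells (0.00204). Of all tested loci 0.277% fell in each of these comparisons. At an unadjusted p under 0.05 there were 5 of the 13 in TNF against control and 4 in TNFSG against SG. Of all tested loci 11.2% and 11.4% were under 0.05 there. The part of these markers in the TNF responses was not tested. Some markers of other cell types were also above 0, among them CD68 at 398 to 419 FPKM, KRT19 at 107 to 143 FPKM and EPCAM at 54.4 to 62.2 FPKM, and their part in the results was not tested.

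MIR146A encodes miR-146a, a microRNA whose primary transcript is induced through NF-kB by inflammatory signals. The mature microRNA pairs through its seed with messages of the Toll-like and interleukin receptor pathways, among them TRAF6 and IRAK1, and acts there as a negative feedback in immune and myeloid cells. Names built like the one in the title of the study, which reads PPTG1 and is taken here as PTTG1, are given to long non-coding RNAs after a neighbouring protein-coding gene. The transcript that carries miR-146a lies downstream of PTTG1, so that the MIR146A locus is the nearest reading of the targeted RNA, but the table gave its loci no coordinates and the identity rests on this reading of the title.

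In GENCODE release 29 (hg38), the MIR146A hairpin lies at chr5:160485352-160485450 on the plus strand, inside exon 2 (chr5:160485299-160487426) of both annotated transcripts of its long non-coding host gene MIR3142HG (chr5:160438594-160487426). These transcripts are 2204 and 2301 bases long and start at 160438594 and 160468268. The table listed the locus named MIR146A (XLOC_027314) next to PTTG1 (XLOC_027313), in the order of the plus-strand genes on the chromosome. Its FPKM is the level of longer RNA at the locus in reads of 50 bases, and the mature microRNA was not measured. The mature products are shown because they define what the locus makes, with the seed, bases 2 to 8, in capitals and as RefSeq gives them (GRCh38.p14). miR-146a-5p (chr5:160485372-160485393) and miR-146b-5p, the product of MIR146B on chromosome 10 (chr10:102436520-102436542), share the seed. miR-146a-3p (chr5:160485408-160485429) is the other arm of the MIR146A hairpin.
hsa-miR-146a-5p: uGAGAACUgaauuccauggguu
hsa-miR-146b-5p: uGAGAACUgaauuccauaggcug
hsa-miR-146a-3p: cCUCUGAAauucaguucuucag

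The first 17 bases of miR-146a-5p and miR-146b-5p were identical, and 20 of 22 positions matched from the 5′ end. Of 2370 mature microRNAs in the RefSeq table, 3 had this seed, the other being miR-7153-5p. The promoter window of MIR3142HG (chr5:160468001-160468300, plus strand, 250 bases before to 50 bases after the RefSeq start) is shown because the locus changed with TNF in these libraries. The kB motif found in it is in capitals.
MIR3142HG promoter: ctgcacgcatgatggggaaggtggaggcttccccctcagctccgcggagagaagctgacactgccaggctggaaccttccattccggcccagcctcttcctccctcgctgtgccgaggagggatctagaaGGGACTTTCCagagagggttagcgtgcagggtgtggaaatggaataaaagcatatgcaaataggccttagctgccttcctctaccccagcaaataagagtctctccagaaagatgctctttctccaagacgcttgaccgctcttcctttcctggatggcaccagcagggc

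Both strands were searched for GGGNNTTTCC, a pattern for kB motifs. The match in the MIR3142HG window read GGGACTTTCC, and this exact sequence was then searched in all promoter windows. Its presence in the MIR3142HG window was therefore given in advance, and the share of windows that hold it is a description only. GGGACTTTCC lay at 160468131 to 160468140, which is 120 to 111 bases upstream of the start. It was found in 67 of 35116 promoter windows (0.191%), and GGGNNTTTCC in 671 (1.91%). Neither motif was in the window of SLU7, of PWWP2A, in the 2 windows of PTTG1 or in the 2 windows of ATP10B, and ZBED8 was not searched. A match or its absence in a window describes these letters only.

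The MIR146A locus rose with TNF and was lower in cells given Si623/Gap01, with and without TNF. With TNF the fall passed limma's adjusted threshold, though not under every setting, and without TNF it did not pass. The locus had 7.77, 4.51 and 4.03 FPKM in TNFSG cells, 28.1, 25.6 and 21.2 FPKM in TNF cells, 0, 0.0566 and 0.0630 FPKM in SG cells and 0.360, 0.569 and 0.159 FPKM in control cells. All 4 groups were separate: every TNF library was above every TNFSG library, every TNFSG library above every control library and every control library above every SG library. In recovered reads these values were 598, 240 and 226 reads in TNFSG, 1834, 1491 and 1125 in TNF, 0, 3 and 4 in SG, and 23, 34 and 8 in control. The levels without TNF rest on 8 to 34 reads per control library, and those in SG on 7 reads in all.

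**Figure D1:**
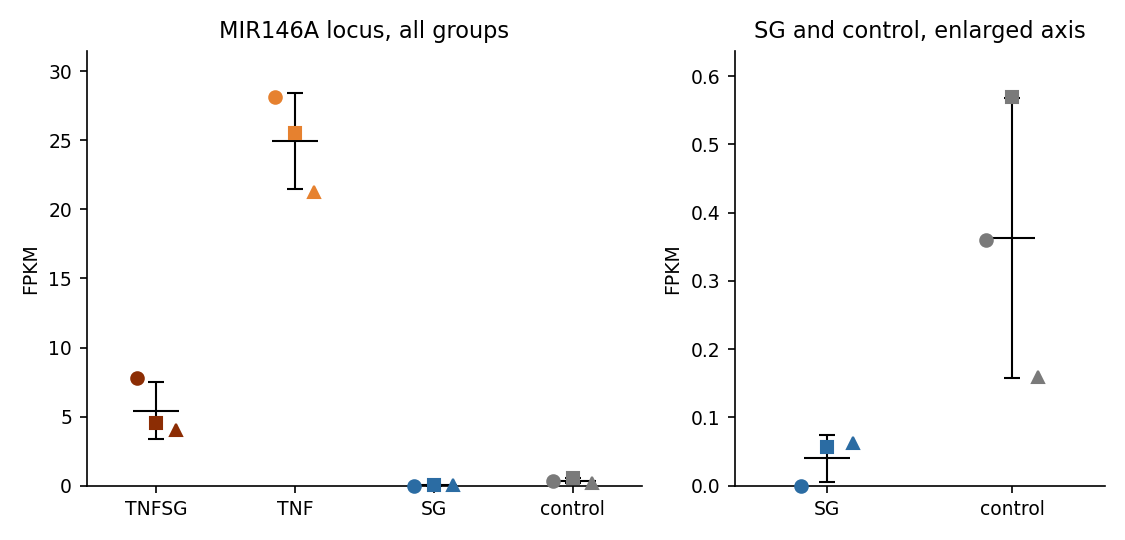
FPKM of the MIR146A locus in each library (y axis) by group (x axis), with SG and control repeated on an enlarged axis; circles, squares and triangles are replicates 1, 2 and 3, and bars are the mean and SD of 3 replicates. The TNFSG libraries lie between 4.03 and 7.77 FPKM and the TNF libraries between 21.2 and 28.1 FPKM, and SG lies below control.

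TNF against control asked for the TNF response of mock-transfected cells. The MIR146A locus averaged 25.0 ± 3.48 FPKM in TNF cells and 0.363 ± 0.205 FPKM in control cells (SD, n = 3 each). On the log2(FPKM + 1) scale it rose by 4.25 ± 0.22 (SE; 95% interval 3.76 to 4.75), with a limma adjusted p of 1.2e-05. This scale shrinks changes that start from low values. Per depth, the recovered reads gave a 67.5-fold ratio (95% interval 52.8 to 87.5, counting error only). Of the 6 genes 1, MIR146A, passed, against a background of 1.18% of all tested loci that rose. In bulk RNA, a change in the RNA of each cell and a change in the share of cells that carry it cannot be told apart.

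TNFSG against TNF asked what Si623/Gap01 changed in TNF-treated cells. The MIR146A locus averaged 5.44 ± 2.03 FPKM in TNFSG cells and 25.0 ± 3.48 FPKM in TNF cells (SD, n = 3 each), a mean 78.2% lower. The lowest TNF library was 2.73 times the highest TNFSG library, and the TNFSG libraries stood at 31.1%, 18.1% and 16.2% of the TNF mean, so replicate 1 kept the most. The locus fell by 2.05 ± 0.22 on the log2 scale (SE; 95% interval -2.55 to -1.55), with a limma adjusted p of 0.0191, and ranked 8 of 32866 loci by p. By recovered reads, TNFSG held 22.7% of the TNF level per depth (95% interval 21.2 to 24.2, counting error only). Of the 6 genes MIR146A alone passed, where 0.0700% of tested loci fell; without scaling 45.2% of the calls in this comparison were rises, and 24.4% with median-ratio scaling or 27.0% with quantile normalization. This call depended on single libraries: the limma adjusted p was 0.0831 without TNFSG replicate 2, 0.0565 without TNFSG replicate 3, 0.0569 without TNF replicate 1, 0.0664 without TNF replicate 2 and 0.0764 without TNF replicate 3, while it was 0.00653 without TNFSG replicate 1. With single libraries left out the log2 change stayed between -2.29 and -1.89. The call was also lost at a pseudocount of 0.1 (limma adjusted p 0.0968) and with only these groups in the fit (0.214).

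SG against control asked the same without TNF. The mean level was 0.0399 FPKM in SG cells, 1 library of which was listed at 0, and 0.363 FPKM in control cells, so that it was 89.0% lower in SG. The ratio per depth was 11.2% (95% interval 4.32 to 24.4, counting error only) from 7 reads in SG and 65 in control. On the log2(FPKM + 1) scale the change was -0.38 ± 0.22 (SE; 95% interval -0.88 to 0.12), with a limma adjusted p of 0.628, and -1.65 at a pseudocount of 0.1 (0.198). The locus thus did not pass the test in this comparison, and its groups did not overlap. Every control library was below the pseudocount of 1 FPKM, so even a complete loss would be a small change on the log2(FPKM + 1) scale. Not passing there cannot decide whether the level changed. Of the 6 genes 0 passed by limma and 1 had an unadjusted p under 0.05, where 0.170% of all tested loci passed in either direction and 9.86% had an unadjusted p under 0.05. Of those passing loci 32.1% rose without scaling, and 20.5% with median-ratio scaling or 21.0% with quantile normalization.

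TNFSG against SG asked for the TNF response of cells given Si623/Gap01. The MIR146A locus still rose, to 5.44 ± 2.03 FPKM in TNFSG cells, against 0, 0.0566 and 0.0630 FPKM in SG cells. The log2 change was 2.59 ± 0.22 (SE; 95% interval 2.09 to 3.08), with a limma adjusted p of 0.000271, and the lowest TNFSG library was 7.09 times the highest control library. Per depth the recovered reads gave a ratio of 136.8 (95% interval 66.2 to 341, counting error only), whose width comes from the 7 reads of SG. Of the 6 genes 1, MIR146A, passed, where 1.37% of tested loci rose.

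The TNF response of the locus differed between the transfections in a way that depends on the scale. In FPKM the rise was 5.40 in Si623/Gap01 cells (TNFSG minus SG) and 24.6 in mock cells (TNF minus control), which is 21.9% of the mock rise. As ratios of the means the rise was 136-fold in Si623/Gap01 cells and 68.8-fold in mock cells. The interaction on the log2(FPKM + 1) scale was -1.67 ± 0.31 (SE; 95% interval -2.37 to -0.96), with an unadjusted limma p of 4e-04 and a limma adjusted p of 0.47, so it did not pass. It was -1.49 at a pseudocount of 0.5 and -0.57 at 0.1, and 0.99 as a ratio of mean ratios with no pseudocount, so its sign follows the weight given to the few reads without TNF. Of the 6 genes 0 passed the interaction by limma and 1 had an unadjusted p under 0.05, where 0.00913% of tested loci passed and 3.75% had an unadjusted p under 0.05.

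**Figure D2:**
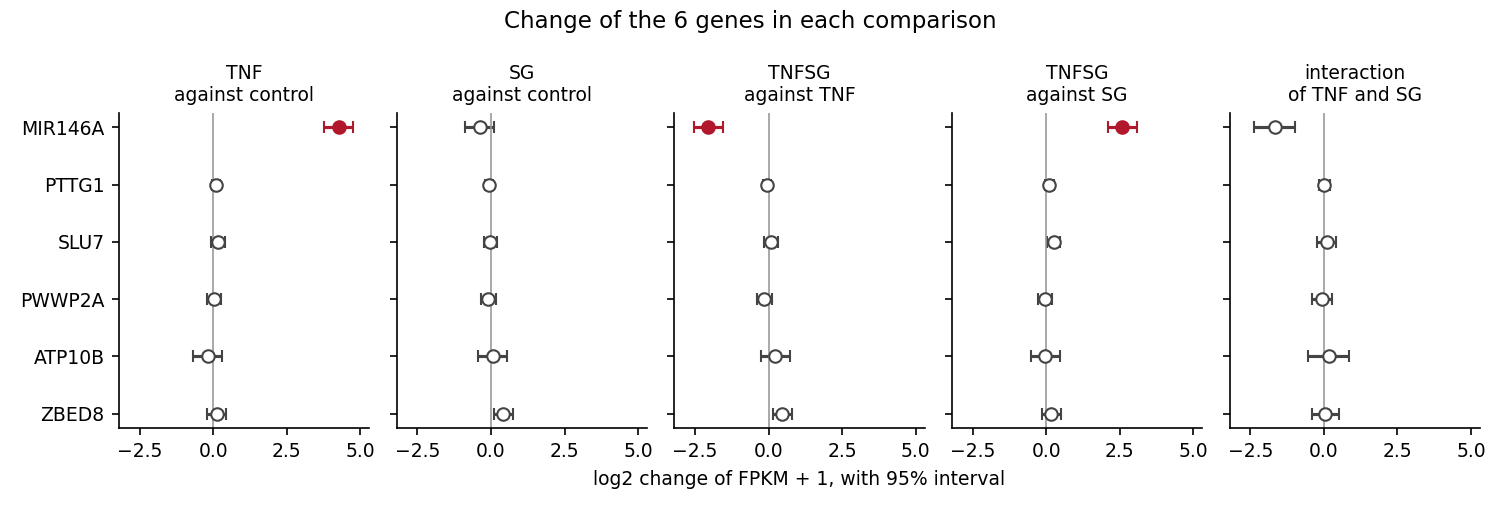
Log2 change of FPKM + 1 (x axis) with its 95% interval for the 6 genes (y axis) in the 5 comparisons; filled red points passed limma's adjusted threshold of 0.05. MIR146A passed in TNF against control (4.25), TNFSG against TNF (-2.05) and TNFSG against SG (2.59), and the other 5 genes lay between -0.20 (ATP10B in TNF against control) and 0.46 (ZBED8 in TNFSG against TNF) and did not pass.

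Among all other named loci, the 10 whose profile over the 12 libraries was most like that of MIR146A were ranked, and ranks 2 to 10 are given here: CXCL8, BIRC3, SDC4, CXCL3, NFKBIA, TNFAIP3, NFKB2, CYP3A7 and RELB. Likeness was the root-mean-square difference of log2(FPKM + 1) profiles centred on their means, which lay between 0.71 and 0.83 for these 9. Their differences are given as a description, since they were chosen on these values. They were higher in TNF than in control by 2.22 (CYP3A7) to 3.81 (TNFAIP3 and RELB) on the log2 scale, against 4.25 for MIR146A. Between TNFSG and TNF these 9 differed by -0.55 (CYP3A7) to 0.09 (RELB), against -2.05 for MIR146A. NFKBIA, for example, averaged 138.7 FPKM in TNFSG cells and 138.2 FPKM in TNF cells.

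**Figure D3:**
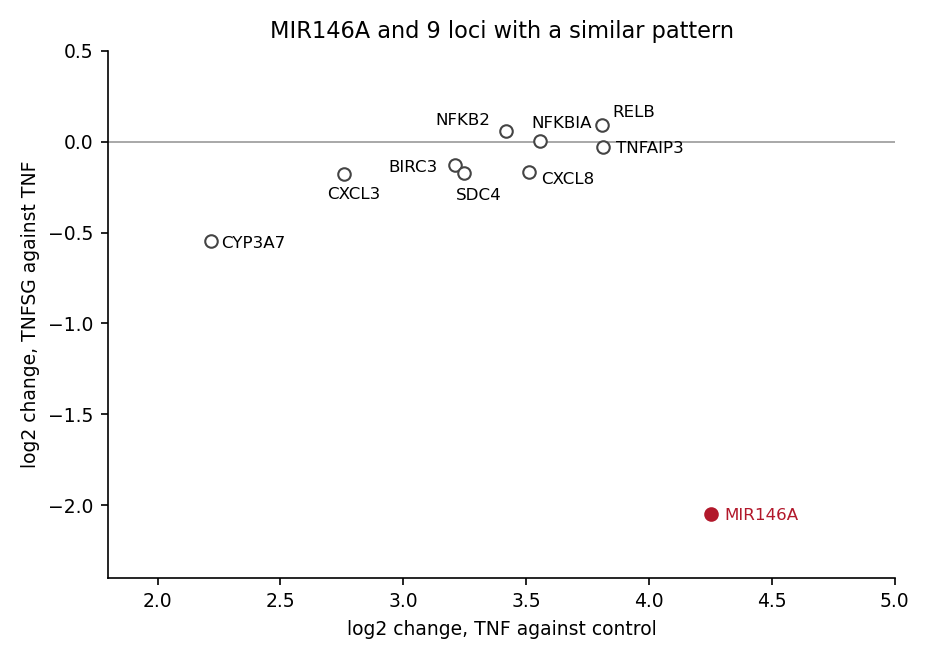
Log2 change of FPKM + 1 in TNFSG against TNF (y axis) over that in TNF against control (x axis) for MIR146A (red) and 9 of the 10 loci with the most similar profile (open points). MIR146A lies at 4.25 and -2.05, and the other 9 lie between -0.55 and 0.09 on the y axis.

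The pathway around miR-146a was followed in 4 lists. Counts at an unadjusted p are read against the same share of all tested loci under 0.05, which was 11.2% for TNF over control, 9.86% for SG over control, 9.11% for TNFSG over TNF and 11.4% for TNFSG over SG. Of 32 tested NF-kB subunits, inhibitors and targets, 26 rose in TNF against control and 27 in TNFSG against SG. Of all tested loci 1.18% and 1.37% rose there. The median log2 changes of the 32 were 2.53 and 2.67, where the medians of all tested loci were -0.02 and -0.03. In TNFSG against TNF 0 of these 32 passed by limma, where 0.128% of all tested loci did, and 1 had an unadjusted p under 0.05. The median of the 32 was 0.05 where all loci had 0.08. Of 17 tested targets of miR-146a, IRAK2 and RELB rose in both TNF comparisons, where 1.18% and 1.37% of all tested loci rose. RELB is also a member of the NF-kB list counted above. In TNFSG against TNF 0 of the 17 passed by limma and 1 had an unadjusted p under 0.05. Their median in TNFSG against TNF was 0.08, the same as over all loci.

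TRAF6, the ubiquitin ligase of these receptor pathways, averaged 5.75 ± 0.67 FPKM in TNFSG cells and 6.23 ± 0.53 FPKM in TNF cells (SD, n = 3 each), a log2 difference of -0.10 (95% interval -0.44 to 0.23). MIR146B, whose product shares the seed, had 12.7, 12.6 and 13.3 FPKM in TNFSG cells, 12.3, 6.52 and 11.3 FPKM in TNF cells, 9.08, 4.74 and 6.35 FPKM in SG cells and 8.22, 5.60 and 5.60 FPKM in control cells. TNFSG was above every other group, while TNF overlapped with SG and control. Its log2 change was 0.88 in TNFSG against SG (limma adjusted p 0.175) and 0.37 in TNFSG against TNF (0.736), so it did not pass.

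Of 9 tested microRNA host genes and microRNA loci, a list that includes MIR146A, MIR146A rose and MIR17HG fell in TNF against control. Of all tested loci 1.18% rose and 0.277% fell there. Only MIR146A passed in TNFSG against TNF, where 0.0700% of all tested loci fell, and in TNFSG against SG, where 1.37% rose. MIR17HG averaged 30.8 FPKM in TNF cells and 40.5 FPKM in control cells, a log2 change of -0.38 (limma adjusted p 0.0261). Of 11 tested genes of microRNA processing, among them DROSHA, DGCR8 and DICER1, 0 passed by limma in any comparison. Across the comparisons 0.00913% to 1.64% of all tested loci passed in either direction. In each pairwise comparison 1 or 2 of the 11 had an unadjusted p under 0.05, where 9.11% to 11.4% of all tested loci did.

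None of the 5 neighbours passed limma's adjusted threshold in any of the 5 comparisons. Of all tested loci 0.00913% (interaction) to 1.64% (TNFSG against SG) passed in either direction, so 0 of 5 is near the background. In 510 tests of the 5 neighbours under other settings 0 passed by limma, and the lowest adjusted p was 0.249. These tests reuse the same 12 libraries and are no further evidence. The intervals below give the range of change that each test covers.

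PTTG1 (XLOC_027313; chr5:160421822-160428744, plus strand, 56.6 kb from the hairpin) encodes securin, which holds separase inactive until anaphase. It had 199.2, 201.8 and 188.3 FPKM in TNFSG cells, 202.4, 199.3 and 210.6 FPKM in TNF cells, 179.8, 177.3 and 189.6 FPKM in SG cells and 192.4, 181.0 and 203.0 FPKM in control cells. The groups overlapped in every comparison. Between TNFSG and TNF cells the log2 difference was -0.06 (95% interval -0.20 to 0.09; limma adjusted p 0.861), and between SG and control cells it was -0.08 (95% interval -0.22 to 0.07; 0.751). As ratios of FPKM + 1, these intervals run from 0.873 to 1.06 and from 0.861 to 1.05. PTTG2 and PTTG3P, near-identical copies of PTTG1, were entries of the list counted next, and their own levels are not given here. Reads of 50 bases may be shared among these copies and PTTG1, so the level of PTTG1 is uncertain by that share. Of 21 tested genes of securin, separase and cohesin, 0 passed by limma in TNFSG against TNF, where 0.128% of all tested loci did. There 2 had an unadjusted p under 0.05, where 9.11% of all tested loci did. SGOL1, a protector of cohesin, rose in TNF against control and in TNFSG against SG, where 1.18% and 1.37% of all tested loci rose.

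SLU7 (XLOC_027737; chr5:160401641-160421711, minus strand, 63.6 kb from the hairpin) lies head to head with PTTG1 and encodes a splicing factor for the step that joins exons. It had 21.4, 25.8 and 21.7 FPKM in TNFSG cells, 22.2, 20.7 and 22.2 FPKM in TNF cells, 18.7, 20.1 and 18.2 FPKM in SG cells and 21.5, 19.7 and 16.9 FPKM in control cells. Every TNFSG library was above every SG library, and the other pairs of groups compared overlapped. The log2 difference between TNFSG and SG was 0.26 (95% interval 0.03 to 0.49), with a limma adjusted p of 0.361. Between TNFSG and TNF it was 0.07 (95% interval -0.16 to 0.30). Among 16 tested genes of this splicing step, SLU7 included, 0 passed by limma in any comparison, where 0.00913% to 1.64% of all loci did. At most 2 had an unadjusted p under 0.05 in a pairwise comparison, where 9.11% to 11.4% of all tested loci did. In TNFSG against SG the 1 counted was SLU7 itself (unadjusted limma p 0.0318).

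PWWP2A (XLOC_027733; chr5:160061801-160119423, minus strand, 366 kb from the hairpin) encodes a chromatin protein that binds H2A.Z nucleosomes and parts of the NuRD deacetylase complex. It had 10.9, 11.8 and 10.9 FPKM in TNFSG cells, 13.3, 12.3 and 11.9 FPKM in TNF cells, 9.96, 12.6 and 12.2 FPKM in SG cells and 14.1, 11.7 and 11.3 FPKM in control cells. Every TNFSG library was below every TNF library, by a small margin. The log2 difference was -0.15 (95% interval -0.40 to 0.10), with a limma adjusted p of 0.767. The symbol was also on 4 further loci (XLOC_028827 to XLOC_028830), which held 0 to 25 recovered reads per library. Of 21 tested H2A.Z and NuRD genes 0 passed by limma in any comparison, where 0.00913% to 1.64% of all tested loci did. In each pairwise comparison 1 to 4 of the 21 had an unadjusted p under 0.05, where 9.11% to 11.4% of all loci did.

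ATP10B (XLOC_027738; chr5:160563120-160852214, minus strand, 77.7 kb from the hairpin) encodes a P4-ATPase, a pump that moves lipids between the leaflets of a membrane. It had 3.86, 2.41 and 4.10 FPKM in TNFSG cells, 2.59, 3.13 and 2.55 FPKM in TNF cells, 3.83, 2.80 and 3.94 FPKM in SG cells and 2.33, 3.50 and 4.30 FPKM in control cells. These are 44, 19 and 34 recovered reads in TNFSG, 25, 27 and 20 in TNF, 29, 22 and 37 in SG and 22, 31 and 32 in control. All groups overlapped, and no difference was detectable at this depth. The log2 difference was 0.23 in TNFSG against TNF (95% interval -0.27 to 0.72) and -0.20 in TNF against control (95% interval -0.69 to 0.30). Of 10 tested P4-ATPases and CDC50 subunits 0 passed by limma in any comparison, where 0.00913% to 1.64% of all tested loci did. In each pairwise comparison 0 to 4 of the 10 had an unadjusted p under 0.05. The number was 4 in SG against control, beside 9.86% of all loci, and 2 in TNFSG against TNF, beside 9.11%.

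ZBED8 (XLOC_027736; chr5:160393148-160400097, minus strand, 85.3 kb from the hairpin) encodes a BED zinc finger protein derived from a DNA transposon. It had 3.71, 3.77 and 4.47 FPKM in TNFSG cells, 2.76, 2.62 and 2.47 FPKM in TNF cells, 3.20, 4.28 and 2.92 FPKM in SG cells and 2.43, 2.24 and 2.32 FPKM in control cells. Every library given Si623/Gap01 was above every mock library, with and without TNF. The log2 difference was 0.46 ± 0.14 in TNFSG against TNF (SE; 95% interval 0.14 to 0.78; unadjusted limma p 0.0096, adjusted 0.345) and 0.41 ± 0.14 in SG against control (95% interval 0.09 to 0.73; unadjusted limma p 0.0166, adjusted 0.369). These comparisons share no library, but their SEs come from 1 spread estimated over all 12 libraries, so the tests are not independent. Both fail the adjustment. With quantile normalization the differences were 0.31 and 0.25, and as a log2 ratio of group means without a pseudocount 0.61 and 0.57. The median of all tested loci was 0.08 in both. Averaged over TNF, a contrast chosen after these values were seen, the difference was 0.44 ± 0.10 (95% interval 0.21 to 0.66) with a limma adjusted p of 0.0808, where 1.11% of all tested loci passed. TNF itself gave 0.12 in TNF against control (limma adjusted p 0.85), and the interaction was 0.05 (95% interval -0.41 to 0.50). A further locus with this symbol (XLOC_028831) held 5, 5 and 4 recovered reads in TNFSG, 3, 5 and 0 in TNF, 4, 13 and 5 in SG and 6, 1 and 1 in control. Its means were 2.93 FPKM in TNFSG, 1.68 in TNF, 5.13 in SG and 1.66 in control cells. At this locus TNFSG overlapped with TNF and SG with control. Of 5 tested ZBED genes, ZBED8 included, 0 passed by limma in any comparison, where 0.00913% to 1.64% of all tested loci did. In each of SG against control, TNFSG against TNF and TNFSG against SG 1 had an unadjusted p under 0.05. Of all tested loci 9.86%, 9.11% and 11.4% did. In SG against control and in TNFSG against TNF this 1 was ZBED8 itself, and in TNFSG against SG it was another gene.

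**Figure D4:**
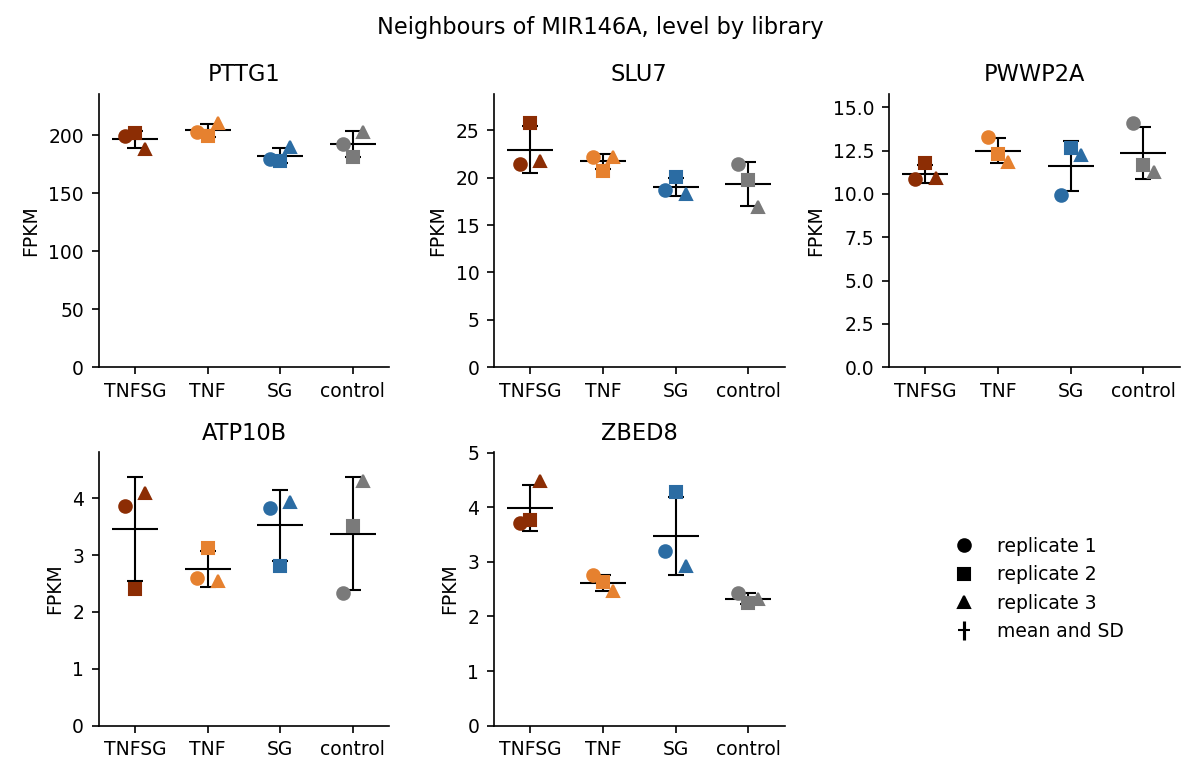
FPKM in each library (y axis) of the 5 neighbours of MIR146A by group (x axis); circles, squares and triangles are replicates 1, 2 and 3, and bars are the mean and SD. PTTG1 lies between 177.3 and 210.6 FPKM in all 12 libraries, and ZBED8 lies above 2.9 FPKM in every TNFSG and SG library and below 2.8 FPKM in every TNF and control library.

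Groups without overlap were frequent over the whole table. In TNFSG against TNF they were MIR146A and PWWP2A (both lower) and ZBED8 (higher), 3 of 6 genes, where 14.8% of all tested loci did not overlap in either direction. In SG against control they were MIR146A (lower) and ZBED8 (higher), 2 of 6, where 14.9% did not. In TNF against control they were MIR146A and ZBED8 (both higher), 2 of 6, where 15.6% did not. In TNFSG against SG they were MIR146A and SLU7 (both higher), 2 of 6, where 18.2% did not.

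Levels per length placed PTTG1 first in every group, at means of 182 to 204 FPKM, followed in SG and control cells by SLU7 and PWWP2A. ATP10B and ZBED8 came next and overlapped with each other in all 4 groups. MIR146A was the lowest of the 6 genes in SG and control cells. In TNF cells its libraries (21.2 to 28.1 FPKM) overlapped with those of SLU7 (20.7 to 22.2 FPKM), the level next to it. In TNFSG cells (4.03 to 7.77 FPKM) it overlapped with ATP10B and ZBED8 and lay below PWWP2A.

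Of 26 listed symbols of the wider region, from EBF1 to MAT2B, 16 had a tested locus, and these ran from RNF145 to MAT2B. MIR146A was the one that passed in 3 of the 4 pairwise comparisons. In SG against control 0 of the 16 passed by limma, where 0.170% of all tested loci did. There 3 of the 16 had an unadjusted p under 0.05, where 9.86% of all tested loci did. For TNF against control the median log2 change of the 16 was 0.03, beside -0.02 for all tested loci. It was close to 0 beside 0.08 for SG against control, 0.08 beside 0.08 for TNFSG against TNF and 0.12 beside -0.03 for TNFSG against SG. FABP6, a bile acid binding protein, and CCNJL, a cyclin-like protein, had the widest intervals, with FABP6 at 34.8, 17.9 and 12.7 FPKM in TNFSG cells and 9.10, 21.1 and 13.2 FPKM in TNF cells.

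**Figure D5:**
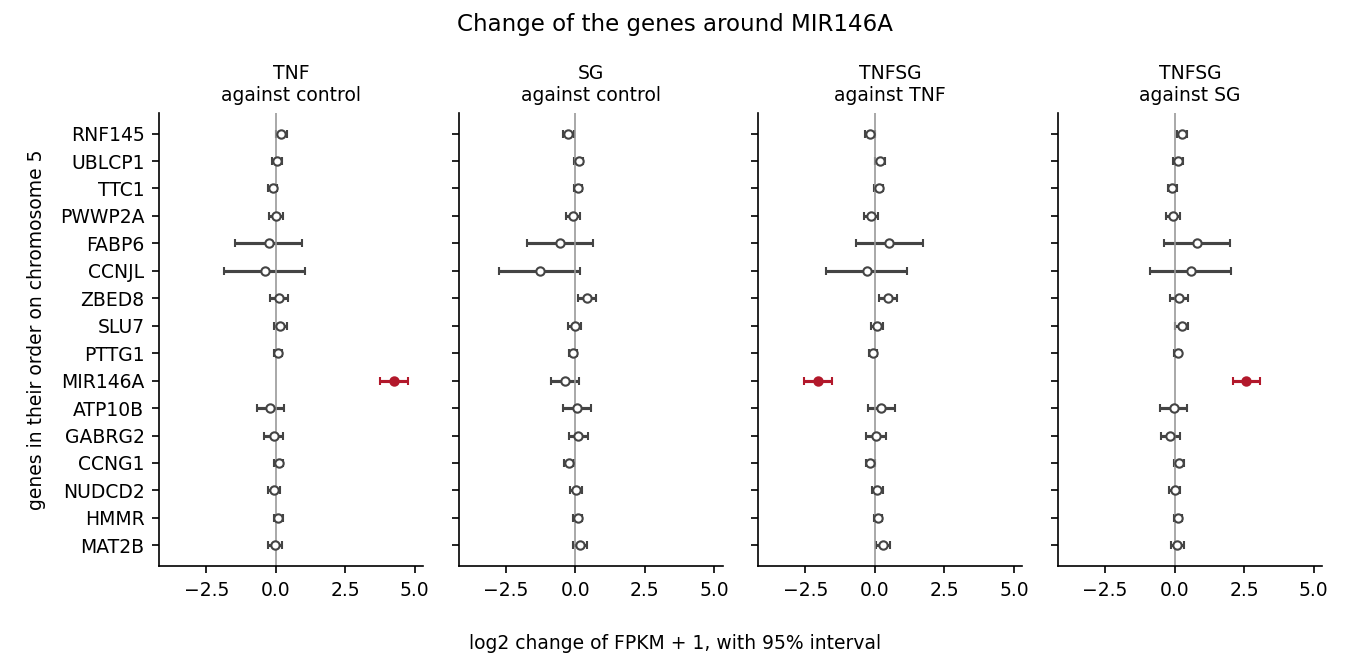
Log2 change of FPKM + 1 (x axis) with its 95% interval for the 16 tested genes from RNF145 to MAT2B, in their order on chromosome 5 (y axis), in the 4 pairwise comparisons; filled red points passed limma's adjusted threshold of 0.05. MIR146A is the filled point in 3 of the 4 panels, at 4.25, -2.05 and 2.59.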

How the data were processed

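The deposited table gives FPKM values per locus and library, which the authors made from single reads of 50 bases with Bowtie2 2.2.9, TopHat2 2.0.14 and Cufflinks on hg38, per the submitters' processing notes. RNA was Trizol-extracted, per the labels' protocols. The sources used here do not give the version of Cufflinks, the annotation release or any use of strand, so overlapping and antisense genes cannot be separated.

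Values were transformed as log2(FPKM + 1). Loci at 1 FPKM or more in at least 3 libraries were fitted with 1 mean per group over all 12 libraries in limma 3.58.1 (R 4.3.3; eBayes with a trend, two-sided). P-values were adjusted by Benjamini-Hochberg over all 32866 loci, with a threshold of 0.05. Reads were recovered where low values stepped in whole reads, and intervals on them are exact and cover counting error only. No count test was run. The genes, lists and named loci follow rules written with earlier results of these data known: the 6 genes and their further loci, the region list, counts and up to 4 members per other list, and the 10 most similar loci, of which 1 is not reported here. MIR146B, TRAF6, IRAK2, RELB, FABP6 and CCNJL are members of those lists. Alternatives were the replicate number as a block, other pseudocounts and filters, 2 scalings, no trend, only the groups compared, and each library left out. The ratio of means and the averaged contrasts were chosen after seeing the data. Python 3.11.15, numpy 2.4.6, pandas 2.3.3, scipy 1.17.1 and matplotlib 3.10.9 were used.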

Additional observations from a re-analysis of the deposited data

How the results depend on the processing

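MIR146A rose in TNF against control and in TNFSG against SG under all 21 other tested settings. In TNFSG against TNF it fell under all 21 and passed under 14, with limma adjusted p values from 0.00653 to 0.214. Its call was lost at a pseudocount of 0.1 (-2.23) and in a fit of only the groups compared (-2.05), and its change was -2.29 to -1.89 with single libraries left out. As a log2 ratio of group means without a pseudocount, a setting added after seeing the data, the change of MIR146A was 6.11 for TNF against control, -3.19 for SG against control and 7.09 for TNFSG against SG. The interaction was then 0.99, the one sign change of the locus, and it rests on 7 reads in SG and 65 in control.

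The replicate number as a block was tried because the labels give the groups shared numbers, which go with the letters A, B and C in the sample titles. Deviations of same-numbered libraries correlated at 0.0065 to 0.138, all above 0, and of others at -0.093 to 0.043. The main fit used no block, and these small correlations cannot decide whether same-numbered libraries are pairs. With the block, 831 loci passed in TNF against control (478 without it) and 843 in TNFSG against SG (540), and MIR146A in TNFSG against TNF had a limma adjusted p of 0.0231. The block changed no call of the 6 genes.

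Loci passing numbered 56 for SG against control, 42 for TNFSG against TNF and 3 for the interaction. These became 115 and 97 in the first 2 with the filter at 5 FPKM, where ZBED8 and ATP10B were not tested, and 16 and 18 without the variance trend. Median-ratio scaling gave 78 in TNFSG against TNF, and a pseudocount of 0.1 gave 12 in the interaction. With only the groups compared, 172 passed for TNF against control, 7 for SG against control, 2 for TNFSG against TNF and 256 for TNFSG against SG, and the interaction could not be fitted. With single libraries left out the counts ran from 294 to 432 for TNF against control, from 10 to 43 for SG against control, from 7 to 25 for TNFSG against TNF, from 311 to 594 for TNFSG against SG and from 1 to 6 for the interaction. The causes were not tested.

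For the 5 neighbours, 0 of 510 fits, all on the same 12 libraries or a part of them, passed. Signs changed only in results within 0.085 of 0. Scaling put ATP10B in SG against control at -0.0023 (median-ratio) and -0.11 (quantile). With single libraries left out it ran from -0.12 to 0.22 there and from -0.15 to 0.15 in TNFSG against SG. PWWP2A ran from -0.039 to 0.11 for TNF against control, from -0.14 to 0.013 for SG against control and from -0.14 to 0.015 for TNFSG against SG. SLU7 ran from -0.11 to 0.054 for SG against control and from -0.0088 to 0.12 for TNFSG against TNF. In the interaction PTTG1 ran from -0.020 to 0.062 and ZBED8 from -0.041 to 0.17.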
